A study of Vitis vinifera with 66 samples.

Results

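Berries of vines that had been flooded at budbreak were compared with control berries at T1, 55 days after anthesis (DAA), before any summer heat. The study sets the start of its sampling, 46 DAA, just before véraison. The comparison holds 6 of the 66 RNA libraries of the series, 3 of flooded plants (F) and 3 of control plants (C), all from the first sampling after T0 (46 DAA), and it takes in all 19625 genes that passed the filter on low counts. All plants were potted Vitis vinifera cv. Sauvignon Blanc vines grafted on 1 rootstock. C plants received no stress, and F plants were submerged in spring and stood afterwards with the C plants in the same tunnel with full irrigation. The drought pair of T1 is used beside them, namely berries of vines whose irrigation had been gradually cut in the other tunnel, without (H) or with (FH) spring flooding. The study kept the berries of each vine apart as a biological replicate. Libraries were made from whole berries, so fewer cells of a type and less RNA per cell cannot be told apart in any value below.

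The grape berry first grows under the influence of auxin, slows down, and then enters véraison, when it softens and begins to store sugars. Abscisic acid rises around that switch and is regarded as one of its main signals, while auxin holds ripening back. Ethylene, gibberellins and salicylic acid are further hormones whose synthesis genes are followed below. For cytokinins no synthesis gene is followed, only genes that the study links to a cytokinin over these samples. The gene IDs are those of the grape genome annotation used by the study, in which the digits after VIT_ give the chromosome. No file in use here describes the IDs, so a function is stated only for genes that the study names, and the tissue label was not checked against markers.

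The 6 libraries held 16502970 to 18616497 counted reads, and their 10 most abundant genes took 5.87 to 9.03% of them. The control libraries were not equally alike. C replicates 2 and 3 differed with a chi-square of 8.95 per degree of freedom, whereas C replicate 1 differed from them with 36.7 and 39.7, and the F libraries differed from each other with 25.4 to 32.3. The median SD between replicates on the scale of log2(CPM + 4), CPM being the counts scaled to a common library total of 1e+06, was 0.117 in C and 0.114 in F. The counts of calls at T1 and the calls of many named genes are therefore also given without it. The sizes of change, the shares of counts, the counts and positions along the control course and the medians at other times were computed with all libraries only.

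At T1, 1209 genes rose and 1661 fell in F berries. Together they are 14.6% of the genes tested (6.16% higher, 8.46% lower; edgeR quasi-likelihood test, called where the p adjusted after Benjamini and Hochberg was below 0.05 and the change 1.5-fold or more). The median log2 fold change over all genes was -0.05. Without C replicate 1 the counts were 655 higher and 765 lower, and without F replicate 2 they were 764 and 702, so that each of these libraries carries a large part of the calls. In no alternative was a called gene called in the opposite direction.

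The genes that rose and the genes that fell differed in size and in level. The median log2 fold change was 0.98 among the higher genes and -1.46 among the lower ones. Among the higher genes 589 changed at least 2-fold, 212 at least 4-fold and 65 at least 8-fold. The corresponding numbers among the lower genes were 1195, 530 and 212. The genes that rose were the more abundant ones, with a median level of 23.9 CPM in C and 50.2 CPM in F, against 11.2 and 4.07 CPM for those that fell. Genes were also classed by the mean of the group in which they were higher, so that a gene that rose was classed by its raised level. Of the 2368 genes over 100 CPM by this measure, 16.1% were higher and 4.14% lower. Of the 5454 genes at 1 to 10 CPM, 3.36% were higher and 12.1% lower.

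**Figure D1:**
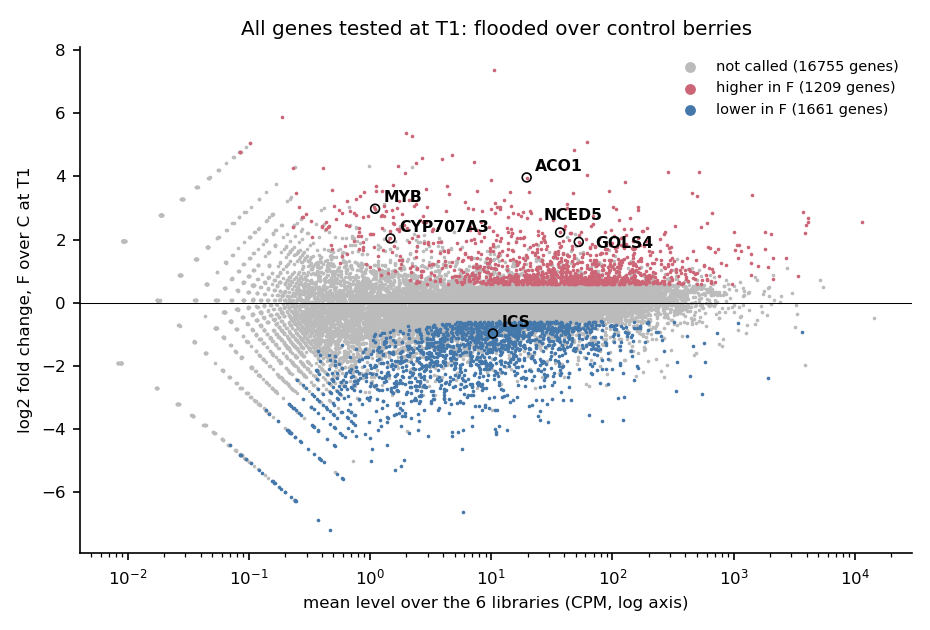
Each point is 1 of the 19625 genes tested at T1, placed by its mean level over the 6 libraries (CPM, log axis) and its log2 fold change of F over C, and coloured by its call (genes without a read in the 6 libraries have no place on the log axis). The higher genes crowd at high levels and the lower genes spread over middle and low levels, with ACO1, MYB, CYP707A3, NCED5 and GOLS4 above the zero line and ICS below it.

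Because the genes that rose were abundant, they took a different part of the RNA in each group. The higher genes together held 8.51, 10.4 and 10.9% of the counts in the C libraries and 22.1, 24.4 and 22.3% in the F libraries. The lower genes held 7.79, 6.37 and 5.99% in C and 2.46, 2.12 and 2.62% in F. Both shares separated the groups in every library, as follows from the way the genes were chosen, and C replicate 1 had the lowest share of the higher genes and the highest share of the lower ones.

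Along the chromosomes the calls were spread evenly. Between 11.7% (chromosome 9) and 16% (chromosome 2) of the genes tested on a chromosome were called. Runs of at least 5 neighbours on a scaffold that all moved one way were found once in each direction. The longer one held 6 genes that fell, from VIT_19s0014g00700 to VIT_19s0014g00830 on chromosome 19, with log2 fold changes of -2.52 to -1.3. On chromosome 11, 5 genes from VIT_11s0016g05040 to VIT_11s0016g05080 rose by 0.59 to 1.37 on the log2 scale. No function is stated for either run in the sources used here.

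The unstressed course of C berries in time was used as a measure for the difference at T1. Berry development and sampling date change together along it and cannot be told apart. From T0 to T2 (46 to 59 DAA) 36.1% of the genes tested changed in C berries, 3106 upwards and 3970 downwards. These genes were chosen without any T1 library. Of the genes that increased along this course in C, 33.9% (1052) were higher in F at T1 and 0 were lower, beside 6.16% of all genes. Of the genes that decreased along it, 36.3% (1443) were lower in F at T1, beside 8.46% of all genes, and 1 was higher. Among the 12549 genes not called along this course, 1.24% were higher and 1.74% lower in F.

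The difference had the direction of the control course in nearly all course genes, called or not. The log2 fold change of F over C at T1 had a median of 0.61 in the genes that increase from T0 to T2, of which 93.6% were positive. In the genes that decrease it had a median of -0.93, and 2.85% were positive. The remaining genes had a median of -0.01, with 48.2% positive.

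Each library was then placed on the line between the mean of T0 C (position 0) and the mean of T2 C (position 1), over the 7076 course genes on the scale of log2(CPM + 4). The C libraries of T1 stood at 0.41, 0.517 and 0.561, about midway. The F libraries stood at 0.983, 1.04 and 0.937, and thus all F libraries lay above all C libraries of T1. Replicate 1 was the least advanced of the T1 controls. The T2 controls stood at 0.768, 1.11 and 1.12. Every F library of T1 thus lay above T2 C replicate 1 and below the other T2 controls. Position 1 and the choice of course genes rest in part on T2 C replicate 1, and no T2 C library was left out in any alternative. At T0, the F libraries had positions of 0.0962 to 0.116 and the C libraries of -0.0575 to 0.0366, which do not overlap either. The T0 C libraries set position 0 and took part in the choice of the genes. That choice alone can place another T0 group above them, so no conclusion is drawn from the T0 positions. At T2 the F libraries ranged from 0.951 to 1.11, within the range of C. The position hardly moves after T2, with group means of 1.03 to 1.06 in C from T3 to T5, so that it does not resolve the later times. The line ends in libraries of T0 and T2, and the groups of 3 allow no two-sided p under 0.1 in an exact permutation test.

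A direct comparison of T1 F with each control time point gave the fewest genes against T2 C. The number of genes called was 8148 against T0 C, 2870 against T1 C, 239 against T2 C, 1014 against T3 C, 6284 against T4 C and 8404 against T5 C. By this count, F berries at 55 DAA were nearest to C berries sampled at 59 DAA. The number against T2 C was itself uneven, with 22 genes without F replicate 2 and 3 without F replicate 3. It was not taken without single T2 C libraries.

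**Figure D2:**
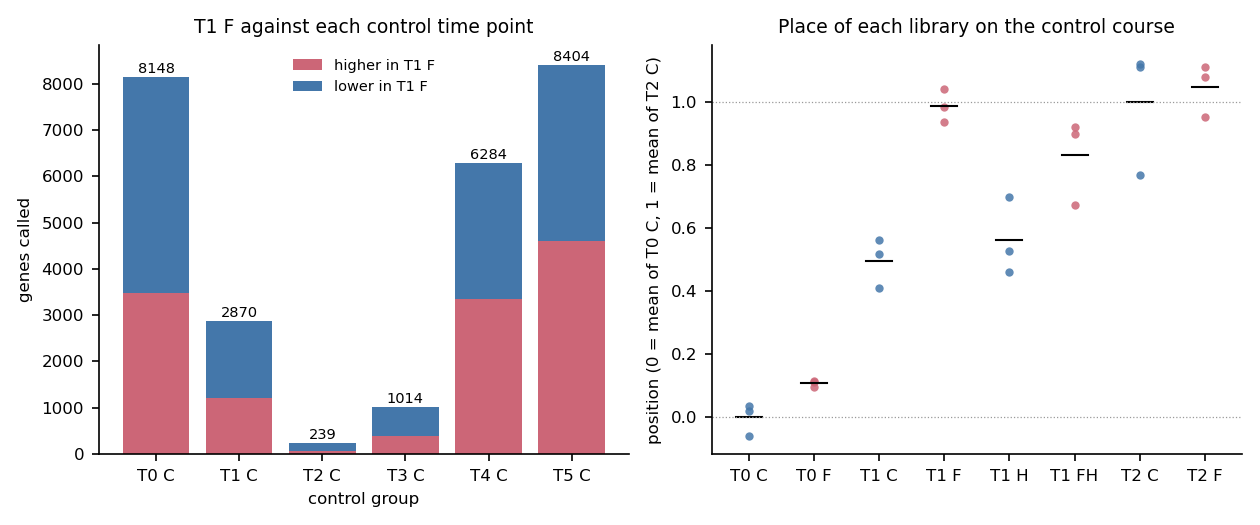
The left panel shows the number of genes called between T1 F and each control time point (stacked bars of higher and lower genes), with the minimum of 239 at T2 C. The right panel shows the position of each library (points, bars for the mean of 3) between T0 C at 0 and T2 C at 1, where the T1 F libraries lie at 0.937 to 1.04 and the T1 C libraries at 0.41 to 0.561.

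Of the 2870 genes called, 374 were not called along the control course, 156 of them higher and 218 lower. Their fold changes were smaller than those of the whole lists, with a median log2 of 0.69 and -1.08. From T0 to T2, 77 of the 156 (49.4%) and 73 of the 218 (33.5%) had an unadjusted p under 0.05, beside 23.6% of all genes not called along the course. Every F library of T1 lay above all 18 control libraries of T0 to T5 in 76 of the 1209 higher genes (6.29%, beside 1.85% of all genes). Every F library lay below all of them in 62 of the 1661 lower genes (3.73%, beside 1%). Genes with every F library outside the whole control range were therefore uncommon among those called. Means outside that range were not counted. The only gene called against the course, singled out after its values were seen, was VIT_08s0105g00300, with means of 25.3 CPM in C and 42.1 CPM in F at T1 and of 50.6 CPM in C at T0 (log2 fold change 0.73 ± 0.26 (SE), edgeR adjusted p = 0.038).

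At the other times the same genes differed little between F and C. Over the 1209 higher genes, the median difference between the group means of F and C on the log2(CPM + 4) scale was 0.04 at T0, 0.74 at T1, 0.07 at T2 and between -0.05 and 0.11 from T3 to T5. Over the 1661 lower genes it was -0.09 at T0, -0.7 at T1, -0.06 at T2 and between -0.1 and 0.01 afterwards. The genes were chosen at T1, so only the values at the other times are informative. The 4 added to each CPM damps differences of genes at low levels, so log2 fold changes from edgeR are also given. Part of the direction was still seen at the other times. At T2 the log2 fold change of F over C was positive in 64.1% of the higher genes (median 0.06) and 24.8% of the lower ones (median -0.22), beside 46% of all genes. At T0 it was positive in 62.4% of the higher genes (median 0.07) and 29% of the lower ones (median -0.12), beside 48.6% of all genes. F over C called 2 genes at T0 and 0 at T2 (edgeR, 392 at an unadjusted p under 0.05). Both genes called at T0, named after their values were seen, also rose along the control course, by 11.81 and 7.65 on the log2 scale from T0 to T2. VIT_06s0061g00550 had means of 1.54 CPM in C and 36.8 CPM in F at T0, and of 1230 and 6720 CPM at T1. VIT_13s0067g02930 had means of 18.7 and 153 CPM at T0, and of 633 and 3020 CPM at T1. Both rose again in F over C at T1 (log2 fold changes 2.45 ± 0.52 and 2.25 ± 0.46 (SE), edgeR adjusted p = 0.0011 and 0.00078) and stood at 5580 and 3750 CPM in C at T2.

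The drought pair, which shares no library with F and C, gave the same direction, with smaller medians than in the contrast by which the genes were chosen. FH over H called 137 genes (0.698%), 109 higher and 28 lower. Over the genes higher in F, the log2 fold change of FH over H had a median of 0.62 and was positive in 98.2%, and over the genes lower in F it had a median of -0.63 and was positive in 5.9%. Over all genes 47.9% were positive. On the line from T0 C to T2 C, the H libraries stood at 0.528, 0.462 and 0.7 and the FH libraries at 0.899, 0.673 and 0.922, so that FH replicate 2 fell below H replicate 3. A test of the difference between the pairs called 0 genes (edgeR, 911 at an unadjusted p under 0.05).

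Among the genes that the study names by ID, reference genes left out, 73 of 79 were tested, of which 9 were higher (beside 6.16% of all genes) and 20 lower (beside 8.46%) in F at T1. The numbers were 2 and 13 without C replicate 1 and 5 and 14 without F replicate 2. Of the 20 lower genes 16 belong to the auxin signaling list (auxin response factors, Aux/IAA repressors, efflux carriers and auxin induced proteins), all of whose 16 members fell, with a median log2 fold change of -1.98. Without C replicate 1, 10 of the 16 passed as lower. The study chose that list on this contrast, so its direction is not independent evidence. An auxin linked gene that the study names for a later time point, VIT_10s0003g00420, had 77, 57.7 and 60 CPM in C and 23.7, 23.8 and 30.9 CPM in F. The groups did not overlap, with means of 64.9 and 26.1 CPM (log2 fold change -1.31 ± 0.28 (SE), edgeR adjusted p = 0.0011). The other such gene, VIT_15s0046g01280, had 72.9 to 84 CPM in C and 79.3 to 84.8 CPM in F and did not pass the test.

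Ethylene synthesis ends with ACC synthase (ACS), which makes the precursor ACC, and ACC oxidase (ACO), which turns ACC into ethylene. Of the genes described here 1 rose and none fell, beside 6.16% higher and 8.46% lower among all genes. ACO1 (VIT_11s0016g02380) had 0.251, 5.19 and 1.64 CPM in C and 43.5, 51.4 and 15.6 CPM in F. Every F library was above every C library, and C replicate 1 had hardly any transcript. The log2 fold change was 3.97 ± 1.12 (SE, edgeR adjusted p = 0.01), and it was 3.43 with an adjusted p of 0.075 without C replicate 1. The call was also lost in a fit of the 12 libraries of T1 (3.96, adjusted p = 0.11). In C the gene went from a mean of 0.0844 CPM at T0 to 43.8 CPM at T2, so that F at T1 (36.9 CPM) was near the T2 control.

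The other genes described here did not pass. ACS1 (VIT_15s0046g02220) rested on few reads, with 0, 0 and 1 in C and 8, 8 and 9 in F, which do not overlap (edgeR adjusted p = 0.065, DESeq2 0.021). Another ACC synthase gene, VIT_02s0025g00360, had 21.3 to 27.8 CPM in C and 10.4 to 13.8 CPM in F (edgeR adjusted p = 0.23). ACO3 (VIT_00s2086g00010) overlapped between the groups, at a log2 fold change of -0.61.

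Abscisic acid is made from carotenoids, and its committed step is the cleavage by 9-cis-epoxycarotenoid dioxygenase (NCED). CYP707A enzymes hydroxylate the hormone and start its breakdown. Of the 5 metabolism genes tested 3 rose, namely 2 synthesis genes and 1 breakdown gene, and 0 fell, beside 6.16% higher among all genes. The median log2 fold change was 1.79, and all 5 were positive.

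NCED4 (VIT_02s0087g00930) had 5.48, 23 and 22 CPM in C and 70.8, 70 and 33.5 CPM in F. NCED5 (VIT_10s0003g03750) had 13.7, 11.1 and 14.2 CPM in C and 67.6, 42.9 and 72.8 CPM in F. CYP707A3 (VIT_18s0076g00340) had 0.553, 0.582 and 0.582 CPM in C and 2.62, 3.74 and 0.777 CPM in F. In all 3 genes the F libraries lay above the C libraries, but a single library was close to the other group in NCED4 and CYP707A3, F replicate 3 in each. The log2 fold changes were 1.79 ± 0.59, 2.23 ± 0.74 and 2.04 ± 0.58 (SE), with edgeR adjusted p of 0.028, 0.029 and 0.011.

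These calls are not firm against the loss of a library. Without C replicate 1 the adjusted p was 0.17 for NCED4, 0.09 for NCED5 and 0.052 for CYP707A3. NCED4 was also lost without F replicate 1 (0.078) or F replicate 2 (0.094), and CYP707A3 without F replicate 2 (0.1). NCED5 was lost without C replicate 2 (0.086), C replicate 3 (0.062), F replicate 1 (0.061) or F replicate 3 (0.067). In the fit of the 12 libraries of T1 the adjusted p was 0.067 for NCED4 and 0.065 for CYP707A3. The remaining synthesis genes overlapped between groups. NCED3 (VIT_19s0093g00550) had 22.2 to 24.3 CPM in C and 14 to 46.6 CPM in F, and NCED6 (VIT_05s0051g00670) did not exceed 0.219 CPM in any of the 6 libraries.

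The study lists by ID 10 genes of a network correlated with abscisic acid content over these samples, of which 7 were tested, 2 rose, beside 6.16% of all genes, and 0 fell (median log2 fold change 1.21). The 7 were all positive, which the choice of the list on these samples may fix. A MYB transcription factor, VIT_19s0015g01280, had 0.201, 0.159 and 0.371 CPM in C and 1.75, 2.59 and 1.55 CPM in F. It rose by 2.98 ± 0.66 on the log2 scale (SE, edgeR adjusted p = 0.0015) without overlap and passed under all 13 alternatives. The glyoxalase I gene VIT_09s0002g06430, which codes for an enzyme that detoxifies methylglyoxal, had 3.87, 4.82 and 5.45 CPM in C and 21.6, 16.8 and 20.5 CPM in F.

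Glyoxalase I rose by 2.06 ± 0.59 on the log2 scale (SE, edgeR adjusted p = 0.012, and 0.065 without C replicate 1). In C its mean was 0.492 CPM at T0, 4.71 at T1 and 25.6 CPM at T2, and F at T1 (19.6 CPM) lay near the last of these. Members that did not pass include MYB108 (VIT_07s0005g01950; 0.855 to 2.38 CPM in C and 1.64 to 2.44 CPM in F) and the matrix metalloproteinase VIT_01s0026g00900 (4.93 to 11.3 and 16.8 to 27 CPM, edgeR adjusted p = 0.34). The PLP phosphatase VIT_04s0008g00870, the histidine kinase VIT_04s0069g00750 and the thioredoxin VIT_10s0003g00390 had log2 fold changes of 0.35, 1.21 and 0.42. The MADS-box gene VIT_10s0042g00820, VIT_01s0011g06310 and CYP704B1 (VIT_01s0026g02700) had at most 3 reads in each of the 6 libraries.

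**Figure D3:**
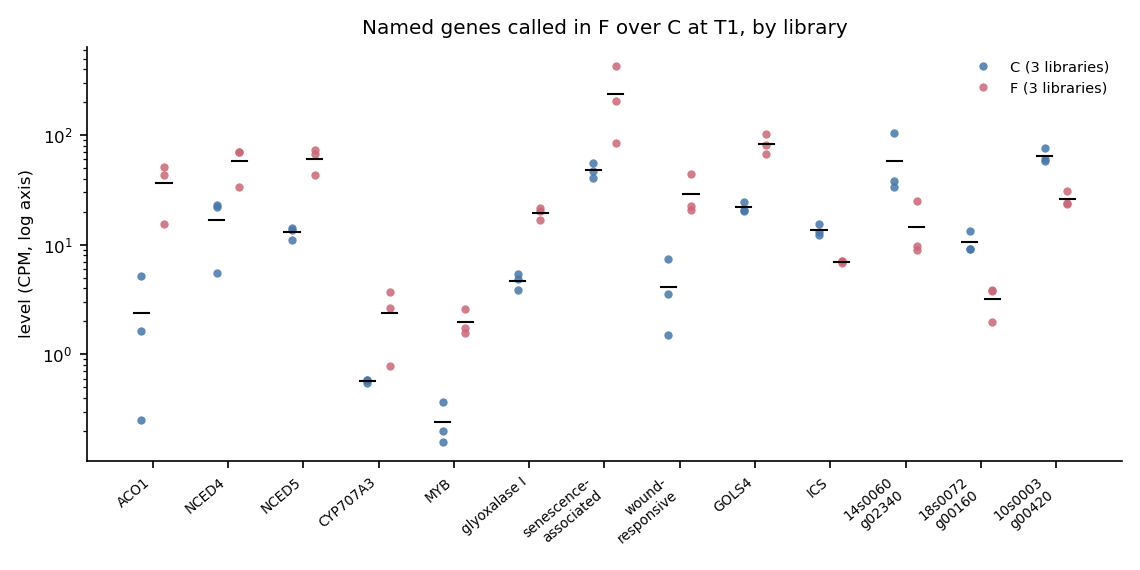
Levels (CPM, log axis) of the 13 named genes outside the auxin signaling and salicylic acid network lists that were called at T1, with 1 point per library and a bar for the mean of 3. In all of them the C and F libraries do not overlap, and F replicate 3 of CYP707A3 (0.777 CPM) lies close to C.

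Gibberellins promote berry set and growth, and 20-oxidases make them whereas 2-oxidases inactivate them. Of the 3 genes tested 0 passed with edgeR (2 were below 0.05 before adjustment, and DESeq2 called 2 higher). The 20-oxidase VIT_15s0048g01320 had 0.251, 0.265 and 0.106 CPM in C and 1.42, 0.979 and 1.11 CPM in F. It did not overlap between groups and missed the threshold narrowly (log2 fold change 2.46 ± 0.92 (SE), edgeR adjusted p = 0.053). The 2-oxidase VIT_10s0003g03490 had 0.159 to 0.855 CPM in C and 0.721 to 4.64 CPM in F (edgeR adjusted p = 0.085), and the 2-oxidase VIT_10s0116g00410 overlapped widely. The 3-oxidase VIT_09s0002g05270 had 0 reads in the 6 libraries.

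Isochorismate synthase (ICS, VIT_17s0000g05750), which opens a route of salicylic acid synthesis, fell. It had 13.2, 15.4 and 12.3 CPM in C and 7.05, 7.14 and 6.77 CPM in F, a tight pair of groups without overlap. The log2 fold change was -0.97 ± 0.24 (SE, edgeR adjusted p = 0.0043), and the call held under all 13 alternatives. In C its mean was 19 CPM at T0, 11.4 CPM at T2 and 9.19 CPM at T3, so that F at T1 (6.99 CPM) was below the control mean of each time point.

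A larger list, of genes that the study found correlated with salicylic acid content over these samples, is given with Gene Ontology terms. In the terms that the copy in use holds complete there are 51 genes, of which 49 were tested, 11 fell and 0 rose, beside 8.46% lower among all genes. The number was 4 without C replicate 1, 3 without F replicate 2 and 6 to 8 without any other of the 6 libraries, and it was 20 of 44 in a fit of the 12 libraries of T1 and 26 of 43 in a fit of the 6. The log2 fold change was negative in 48 and its median was -1.48. Its members were chosen by that correlation on these libraries among others, so its sign is not independent evidence.

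The terms described here had negative medians and few calls, to be read beside 8.46% lower among all genes. Under plasma membrane 5 of 15 genes tested fell (median -1.35), under response to stimulus 4 of 19 (median -1.8), under transcription regulator activity 2 of 18 (median -1.89), under transcription factor activity 1 of 14 (median -1.92) and under cell wall 0 of 7 (median -1.12, edgeR with 2 below 0.05 before adjustment). The clearest member of the membrane group was VIT_08s0058g00640, with 125, 48.9 and 36.4 CPM in C and 8.36, 3.34 and 13.4 CPM in F (log2 fold change -3.06 ± 0.7 (SE), edgeR adjusted p = 0.0021). Another member, VIT_14s0030g01700, had 16.7, 6.78 and 3.6 CPM in C and 0.219, 0.23 and 0.999 CPM in F (log2 fold change -4.2 ± 0.96 (SE), edgeR adjusted p = 0.0022). C replicate 1 was the highest library in both genes, and both calls held without it, at -2.34 and -3.4. The calls of the other 3 membrane genes (VIT_06s0004g06560, VIT_02s0025g01040 and VIT_14s0060g01790) were lost without C replicate 1.

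Under transcription factor activity stand 6 genes of one scaffold of chromosome 16, between and beside which lies DEWAX (VIT_16s0013g01000). DEWAX codes for a transcription factor that represses cuticular wax synthesis in Arabidopsis. All 7 genes were lower in mean in F without overlap between groups, as is the case for 45.9% of all genes in either direction, and 0 of the 7 passed the test (edgeR with 5 below 0.05 before adjustment, and 0 with DESeq2). The median log2 fold change was -2.2. Neighbouring genes of one kind may share reads, although the study counted uniquely mapping reads only.

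DEWAX had 10.5, 10.1 and 6.78 CPM in C and 2.57, 2.94 and 3.16 CPM in F (log2 fold change -1.65 ± 0.84 (SE), edgeR adjusted p = 0.16). The gene with the largest difference, VIT_16s0013g00950, had 14.6, 16.7 and 8.1 CPM in C and 1.86, 1.73 and 2.5 CPM in F (-2.69 ± 1.03 (SE), adjusted p = 0.058). In a fit of the 12 libraries of T1 alone all 7 passed as lower, and likewise in a fit of the 6 libraries of F and C. The call on this group therefore differed between the fits, and the cause was not tested.

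**Figure D4:**
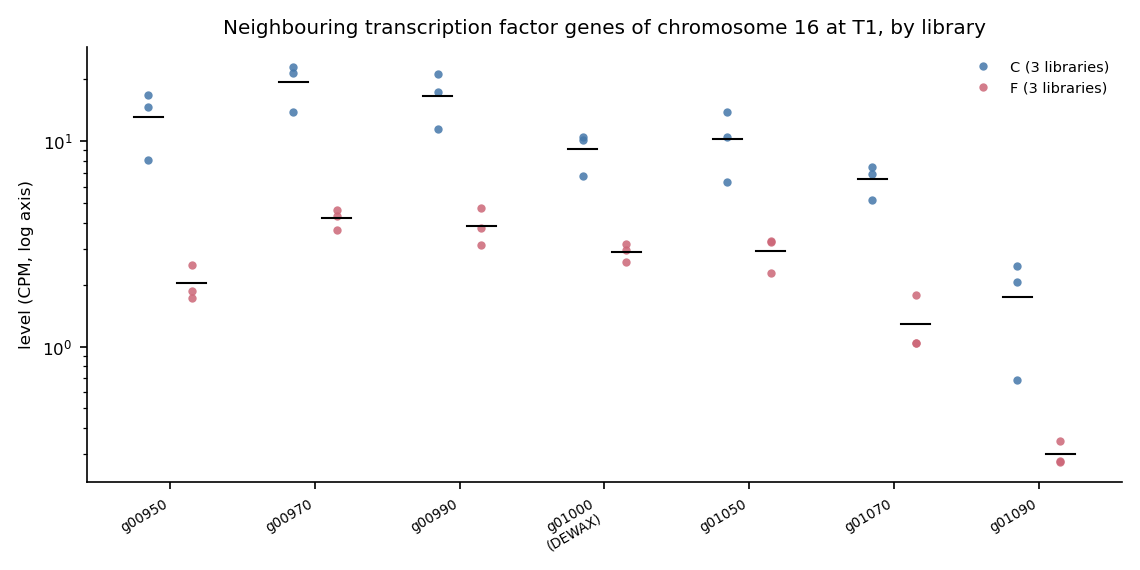
Levels (CPM, log axis) of 7 transcription factor genes of one scaffold of chromosome 16 at T1, named by the last part of their IDs, with 1 point per library and a bar for the mean of 3. In each gene the F libraries lie below the C libraries, with DEWAX at 2.57 to 3.16 CPM in F and 6.78 to 10.5 CPM in C.

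Of 7 genes that the study links to the cytokinin 2-IP over these samples, 5 were tested, 2 rose, beside 6.16% of all genes, and 0 fell (median log2 fold change 1.26). A senescence-associated gene, VIT_01s0146g00260, had 40.5, 47.1 and 55.2 CPM in C and 85.4, 429 and 204 CPM in F. Its F libraries were above C but spread widely (log2 fold change 2.33 ± 0.75 (SE), edgeR adjusted p = 0.024), and the adjusted p was 0.1 without C replicate 1, 0.067 without C replicate 2, 0.052 without C replicate 3 and 0.19 without F replicate 2. A wound-responsive gene, VIT_12s0057g00080, had 1.51, 7.41 and 3.55 CPM in C and 22.4, 44.4 and 20.9 CPM in F. It was just under the threshold (log2 fold change 2.82 ± 1.04 (SE), edgeR adjusted p = 0.05) and was lost under 10 of the 13 alternatives, with adjusted p up to 0.2 (without C replicate 1), so that the call carries little weight. Its neighbour VIT_12s0057g00110 (4.87 to 6.09 and 8.03 to 11.4 CPM) and the transcription factor VIT_08s0007g04180 (17.8 to 35.2 and 49.9 to 68.3 CPM) did not overlap but did not pass (edgeR adjusted p = 0.43 and 0.27). The ribosomal protein gene VIT_00s0873g00010 overlapped, and VIT_07s0031g02280 and VIT_09s0054g01410 had at most 1 read per library.

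Galactinol synthase makes the donor for raffinose family sugars, which act as osmoprotectants. GOLS4 (VIT_01s0127g00470) had 24.7, 20.5 and 20.8 CPM in C and 103, 81.1 and 67 CPM in F. The F libraries were several times above the tight control group, and the log2 fold change was 1.93 ± 0.46 (SE, edgeR adjusted p = 0.0032). It passed under all 13 alternatives and also in the drought pair, with means of 30.2 CPM in H and 105 CPM in FH (1.8, edgeR adjusted p = 0.043). In C the mean was 108 CPM at T2.

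The trehalose genes, by contrast, gave 0 calls out of 4 (edgeR, with 1 below 0.05 before adjustment, and 0 with DESeq2). The trehalose phosphate synthase VIT_01s0026g00280 had 34.2, 63.1 and 71.9 CPM in C and 99.4, 122 and 99.9 CPM in F without overlap (log2 fold change 0.93 ± 0.43 (SE), edgeR adjusted p = 0.12). It was called in the fit of the 6 libraries of F and C (0.94, adjusted p = 0.034). The trehalose-phosphatase genes VIT_01s0011g05960, VIT_10s0003g01680 and VIT_17s0000g08010 had log2 fold changes of -0.26, -0.13 and 0.25, with overlap between groups.

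Other genes of stress metabolism did not pass the test. The heat shock protein gene HSP101 (VIT_17s0000g07190), which codes for a chaperone that takes proteins out of aggregates, had 1020, 1290 and 1160 CPM in C and 406, 236 and 692 CPM in F. The groups did not overlap, but the standard error was large (log2 fold change -1.38 ± 1 (SE), edgeR adjusted p = 0.34). In the fit of the 6 libraries of F and C it was called lower (-1.36, adjusted p = 0.03). Proline is made from glutamate by P5CS and P5CR, and 0 of the 4 genes of proline and glutamate passed (edgeR, with 0 below 0.05 before adjustment, and 0 with DESeq2). P5CS (VIT_13s0019g02360) had 93.4 to 157 CPM in C and 132 to 188 CPM in F, and P5CR (VIT_08s0007g05600) had 12.6 to 14.1 and 14 to 16 CPM. The glutamate dehydrogenase genes VIT_16s0039g02750 and VIT_16s0039g02720 had log2 fold changes of 0.53 and 0.76 without overlap.

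Neither hydroxycinnamoyl transferase gene of chlorogenic acid synthesis passed, with log2 fold changes of -1.13 for VIT_09s0018g01190 and 0.22 for VIT_11s0037g00440. The pectin lyase VIT_07s0005g02090, an enzyme type of cell wall softening, was barely expressed, with 0.318 to 0.754 CPM in C and 0.345 to 0.601 CPM in F. Of the 5 reference genes of the study's quantitative PCR 0 were called (edgeR, with 2 below 0.05 before adjustment, and 0 with DESeq2). They were not all even, however. VIT_17s0000g05580 had 45.8, 18.7 and 22.7 CPM in C and 104, 35.2 and 85.4 CPM in F, and VIT_06s0004g03310 had 43.3 to 48.5 and 61.4 to 75 CPM with an edgeR adjusted p of 0.033 at a log2 fold change of 0.51, under the fold threshold.

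The study's quantitative PCR had further targets for which the sources name no role. Of its 13 targets with primers, 1 was higher (GOLS4), beside 6.16% of all genes, and 2 were lower, beside 8.46%. VIT_18s0072g00160 had 13.4, 9.05 and 9.11 CPM in C and 3.82, 1.96 and 3.88 CPM in F. The groups did not overlap (log2 fold change -1.71 ± 0.5 (SE), edgeR adjusted p = 0.013), and the adjusted p was 0.074 without C replicate 1 and 0.092 without F replicate 2. The primers of the 3 targets that were called are shown because they define the stretches of transcript by which these genes can be measured again in T1 berries. All are written 5′ to 3′ as the study lists them.
GOLS4 forward: aacgctgggatgttcgtctt
GOLS4 reverse: acgagagggatgggcttgta
VIT_14s0060g02340 forward: aatcaaagatgctgtcgtcactgtt
VIT_14s0060g02340 reverse: tttattatccgagccacattgagcc
VIT_18s0072g00160 forward: ggcatcaaagatcaaaccatcaacg
VIT_18s0072g00160 reverse: acccaactaagagcagaagatgaga

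The other lower target was VIT_14s0060g02340. It had 104, 38 and 33.4 CPM in C and 9.67, 8.87 and 25 CPM in F at T1. F was below C in all libraries, with C replicate 1 far above its group (log2 fold change -2.01 ± 0.42 (SE), edgeR adjusted p = 0.00098), and the call held under all 13 alternatives, with a log2 fold change of -1.29 without C replicate 1. In C the means were 13.9 CPM at T0, 58.6 CPM at T1 and 12.2 CPM at T2 and T3, so that the level was raised at T1 alone of these times. In F the means stayed between 12.9 and 14.9 CPM from T0 to T3. The drought pair gave a like difference, with means of 64.7 CPM in H and 19.1 CPM in FH (-1.76, edgeR adjusted p = 0.033). At the times sampled from T0 to T3, the F means thus stayed below the means of C and H berries at T1. Flooded vines did reach such levels in the summer heat, with means of 61.9 CPM in H and 67.3 CPM in FH at T2. At T3 these means were 15.7 and 49 CPM. At T4 and T5 the means were 30.7 and 34.3 CPM in C and 28.1 and 36.6 CPM in F. No berries were sampled between 46 and 55 DAA, so a short rise in F between these times would not be seen.

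**Figure D5:**
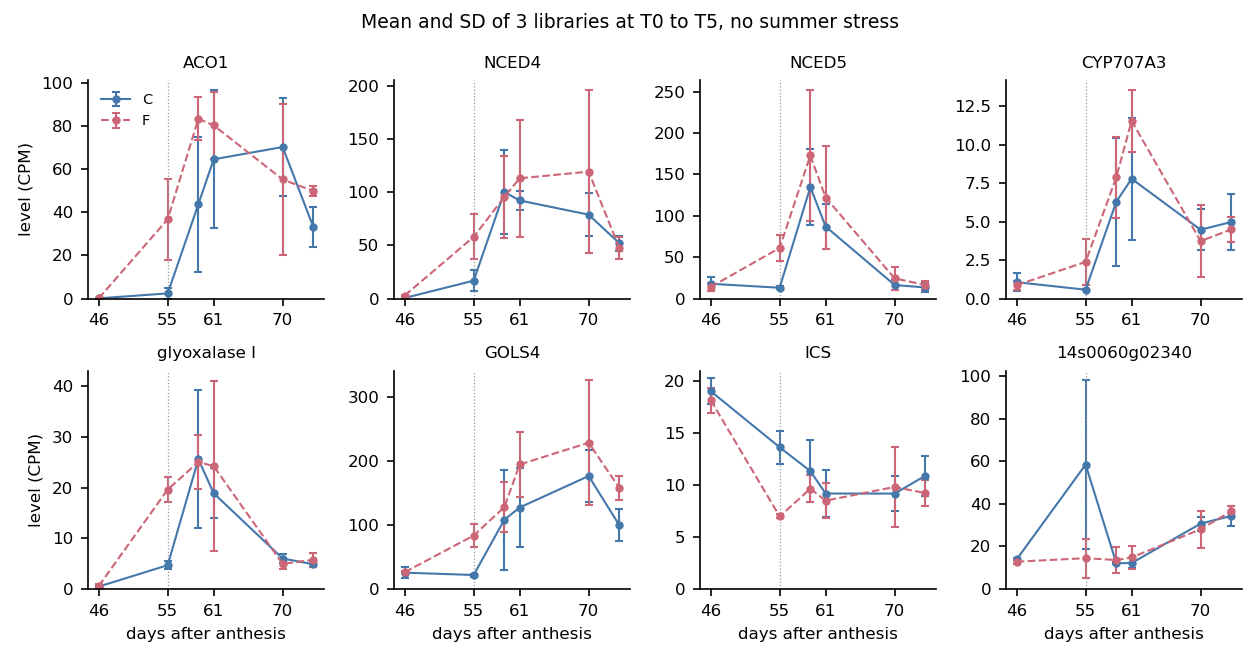
Mean levels (CPM, error bars SD, n = 3 libraries) of 8 genes in C (solid) and F (dashed) from T0 to T5 against days after anthesis, with T1 at the dotted line. ACO1, the NCED genes, CYP707A3, glyoxalase I and GOLS4 are at higher means in F at T1 and rise in C by T2, ICS is lower in F, and VIT_14s0060g02340 has a mean of 58.6 CPM in C at T1 that F does not show.

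Set against T2 C rather than T1 C, the 13 named genes of the plot by library had edgeR adjusted p of 0.12 or more. For ACO1 the log2 fold change of T1 F over T2 C was -0.25, for NCED4 -0.79, for NCED5 -1.14, for CYP707A3 -1.4, for GOLS4 -0.37 and for ICS -0.7. A p that misses the threshold does not show equal levels, and the standard errors of these values, from 0.24 to 0.95 on the log2 scale, leave room for lower levels of the abscisic acid genes in F at T1 than in C at T2.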

How the data were processed

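RNA of berries was sequenced by the study as stranded single-end reads, aligned with TopHat to a revised Pinot Noir genome, and counted per gene where they mapped uniquely; trimming and the counting tool differ between the study's methods (no trimming, Bedtools coverage) and the submitters' processing notes (Trimmomatic 0.39, featureCounts). The authors deposited raw counts, which were used as they are. Of the rows deposited, 300 share 149 gene IDs and 4348 of 29688 rows hold no count; rows were kept apart. Total counts of the 6 libraries were 16502970 to 18616497, so counting error was smaller than the spread between replicates.

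The 19625 genes that reached 0.5 CPM in 3 or more of the 66 libraries were tested with edgeR 4.0.16 under R 4.3.3 (TMM factors, robust quasi-likelihood fit, one mean per group of 3 libraries). A gene was called when it changed 1.5-fold or more with a p, adjusted after Benjamini and Hochberg across the genes tested, below 0.05. Standard errors are the log2 fold change over the root of F. The procedure was tested on simulated data. Levels are CPM with TMM factors, not divided by gene length. Members and lists were chosen with earlier results of these data known. Genes that the study names by ID are given, except for an item that is not reported here, the auxin signaling list as a count, members of the salicylic acid network as counts with examples; other IDs are the ends of the longest runs or named where a count was small. Alternatives were DESeq2 1.42.0, RLE factors, no filter, the 12 or 6 libraries of T1 alone, the replicate number as a block and summed rows. A further alternative was leaving out each of the 6 libraries of F and C at T1. For T1 F over T2 C they were added after seeing the data. The replicate numbers are not stated to pair vines.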

Additional observations from a re-analysis of the deposited data

Results flagged for a closer look

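The difference between F and C was not the same at the neighbouring times. A test of the change in F over C from T1 to T2 called 268 genes (1.37% of those tested, 188 with a more positive and 80 with a more negative log2 fold change at T1), and from T1 to T0 it called 165 (0.841%; edgeR). The first count rested on single libraries, with 2 genes without C replicate 1 and 3 without F replicate 2. The second count was not taken without single libraries.

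Named genes were few among them, and their values were not taken without single libraries. Given the low counts without C replicate 1 or F replicate 2, not all of their calls between T1 and T2 can have held there. The auxin response factor VIT_06s0004g03130 had 105, 73.3 and 65.5 CPM in C and 7.7, 5.47 and 15.9 CPM in F at T1, and its log2 fold change at T1 was lower by -2.77 ± 0.62 (SE, edgeR adjusted p = 0.02) than at T2 and by -2.58 ± 0.6 (adjusted p = 0.031) than at T0. Another auxin response factor, VIT_13s0019g04380, differed by -0.79 ± 0.21 between T1 and T2 (adjusted p = 0.041). The auxin induced gene VIT_07s0005g04380 differed by -2.05 ± 0.57 (adjusted p = 0.05, just under the threshold). The quantitative PCR target VIT_14s0060g02340 differed by -2.18 ± 0.59 between T1 and T2 (edgeR adjusted p = 0.047), and by -1.9 ± 0.59 between T1 and T0, which missed the threshold (adjusted p = 0.086). The 3 auxin genes were chosen by the study on the contrast at T1, so only the values at T2 and T0 are independent of that choice.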

How the results depend on the processing

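The counts at T1 kept within 1.5 times of 1209 higher and 1661 lower genes under DESeq2 (1287 and 1805), RLE factors, no filter, the 12 or 6 libraries of T1 alone and summed rows. Leaving out each library gave 655 to 1151 higher and 702 to 1501 lower genes, lowest without C replicate 1 (655 and 765) and F replicate 2 (764 and 702); 1357 and 1404 of the 2870 genes were then kept. The count of genes whose F over C differed between T1 and T2 (268) was 559 with DESeq2, 167 without the filter and 2 to 248 without single libraries. The count for T1 F over T2 C (239) was 545 with DESeq2 and 3 to 239 without single T1 libraries; the block was not run for it, since it is nested in time points. The replicate numbers share only a number, with correlations of deviations of -0.105, 0.277 and -0.268, and with them as a block 1105 genes were higher and 1420 lower. Of 40 called genes of the lists, 1 lost its call with RLE, 3 with DESeq2, 6 without the filter, 6 with the block, 0 with summed rows and 9 to 21 without a library. Of the 39 tested among the 12 libraries of T1 and the 38 among the 6, 9 and 1 lost it. Other genes of the lists gained a call, 14 with the 12 libraries, 27 with the 6, 4 with DESeq2, 1 without C replicate 3 and 2 without F replicate 3; 0 were reversed. The cause of these moves was not tested. Genes under 1 CPM rest on few reads, and 3 libraries per group limit the calls.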
